A study of Gallus gallus with 6 samples.

Results

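The livers of 3 control roosters without fatty liver made up the material described here, 3 of the 6 libraries of the series. They were chosen by their label, group control and phenotype non-fatty liver, and all 20498 genes of the deposited values were used. The birds were F1 males of the JXH line, a cultivated dwarf chicken, 36 weeks old, raised on the basal diet from control parents on the same diet. The other 3 libraries came from F1 males of the same line, age and diet with fatty liver, from the paternal group. The F0 sires of that group had developed fatty liver on a high-fat diet. Its F0 hens, which had no fatty liver, were given that diet too. Each library came from 1 bird and 1 piece of frozen liver, so the spread given below is that between these 3 birds and includes the sampling of the tissue. Values are FPKM, a measure of transcript level: the fragments of a gene scaled to its length and to the depth of the library.

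The liver is built mostly of hepatocytes, which make the proteins of blood plasma, store and release glucose, break down amino acids and clear foreign compounds. In birds it is also the main site of fatty acid synthesis, and it disposes of nitrogen by building purines that end as uric acid rather than urea. In laying hens estrogen adds the yolk precursors, the vitellogenins and apovitellenin, to this load, and males normally do not make them.

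The control libraries held 10403637, 8860634 and 9668669 fragments in birds 1, 2 and 3. Expressed genes, those averaging 1 FPKM or more, numbered 10719, of which 4052 reached 10 FPKM, 603 reached 100 and 61 reached 1000. Between pairs of birds, Spearman's correlation over the 10719 genes was between 0.940 and 0.953, which is across genes and not across birds. Between 4.91% and 5.67% of the genes differed by 2-fold or more in FPKM + 1, which shrinks the ratios of low genes. In FPKM itself, 19.0% differed by 2-fold or more between the highest and the lowest bird. Of 41 genes placed on the female-specific W chromosome, 38 were under 0.1 FPKM in every bird. The median over expressed genes was 5.83, 7.19 and 6.51 FPKM in birds 1, 2 and 3, so bird 1 read low and bird 2 high for the typical gene; where this matters, values with the birds scaled to the same median are given too.

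The tissue label was borne out by the cell type markers. The 14 hepatocyte markers held 27.8%, 21.9% and 25.9% of the summed FPKM in birds 1, 2 and 3, led by albumin (ALB) and apolipoprotein A1 (APOA1). Bile duct markers held 0.0222%, 0.0279% and 0.0373%, with E-cadherin (CDH1) at 58.9, 62.9 and 95.7 FPKM, EPCAM at 40.8, 50.2 and 90.9 and osteopontin (SPP1) at 10.8, 17.6 and 11.9. Endothelial markers held 0.0266%, 0.0375% and 0.0370%, led by PLVAP at 55.5, 64.7 and 81.2 FPKM, ESAM at 29.2, 40.7 and 37.8 and the scavenger receptor STAB1 at 11.7, 18.6 and 17.02. Stellate cell and fibroblast markers held 0.0304%, 0.0754% and 0.0560%, led by decorin (DCN), and macrophage markers held 0.0741%, 0.0819% and 0.0610%, led by the scavenger receptor CD163L, which gave 400.1, 376 and 284 FPKM and most of that sum. The summed shares of lymphoid markers were lower still, though for T cells against macrophages this rests on CD163L in birds 1 and 3. T cell markers held 0.0101%, 0.0135% and 0.0170%, with CD3D at 19.9, 25.3 and 38.3 FPKM, IL7R at 9.45, 14.1 and 6.81 and CD3E at 7.71, 9.76 and 12.4. B cell markers held 0.00261%, 0.00289% and 0.00496%, with IGLL1 at 5.81, 7.41 and 15.96 FPKM, JCHAIN at 3.86, 2.50 and 4.64 and POU2AF1 at 2.07, 3.27 and 1.69. In bulk tissue, fewer cells of a type and less RNA per cell cannot be told apart.

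In FPKM as deposited, red blood cell messages summed to a similar level in all birds. Alpha globin (HBA1) was at 1009, 969.95 and 1037 FPKM in birds 1, 2 and 3 and the alpha-D globin HBAD at 226, 230.2 and 271, whereas the adult beta globin HBBA was at 12.2, 14.3 and 16.7. The cause of this gap between the globins was not tested. The red blood cell class as a whole, which adds genes such as carbonic anhydrase 2 (CA2, 55.7, 42.6 and 34.9 FPKM), held 0.228%, 0.216% and 0.234%. Of the 6 expressed red blood cell markers, 4 were lowest in bird 2, against 13.4% of all genes. With the birds scaled to the same median all 6 were, against 30.9%. Heterophil and thrombocyte markers were low, with lysozyme (LYZ) at 6.25, 2.13 and 3.19 FPKM, the granulocyte receptor CSF3R at 0.993, 1.94 and 2.60 and S100A12 at 0.498, 1.36 and 1.96, and with the integrin ITGA2B at 3.79, 5.73 and 3.79 and GATA2 at 1.72, 2.49 and 2.32. Markers of neighbouring tissues were low except for the amylase gene AMY1A. Of 19 muscle genes only skeletal actin (ACTA1, 1.80, 7.87 and 4.66 FPKM) reached a mean of 1, followed by TNNC2 at 0, 0.618 and 0.142 and TNNT3 at 0, 0.265 and 0.404. Of 16 exocrine pancreas genes AMY1A at 128, 112 and 131 and AMY2A at 0.705, 1.003 and 1.61 did, while CELA2A was at 0.0983, 0.346 and 0.317. The trypsin genes PRSS2 and PRSS3, defining products of the pancreas, had no fragment in any control bird.

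Expression was concentrated in a small number of genes. Albumin, the main carrier protein of plasma, held 17.9%, 14.8% and 15.3% of the summed FPKM in birds 1, 2 and 3, which is 16.0 ± 1.67% (SD, n = 3). With genes ranked by their mean over the birds, the first 10 held 35.1%, 28.2% and 33.1%, the first 50 held 52.9%, 46.4% and 50.8%, and the first 500 held 78.5%, 74.7% and 77.5%. Ranked within each bird, 37, 69 and 47 genes were enough to reach 50% of the sum, and 1778, 2250 and 1995 genes to reach 90%. Bird 2 therefore had the flattest profile of the 3, and bird 1 the steepest. Counted and ranked as fragments, which weight long messages more, the first 50 genes held 45.6% on average. In FPKM with albumin left out, the first 50 of the other genes held 40.8% of what remained.

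**Figure D1:**
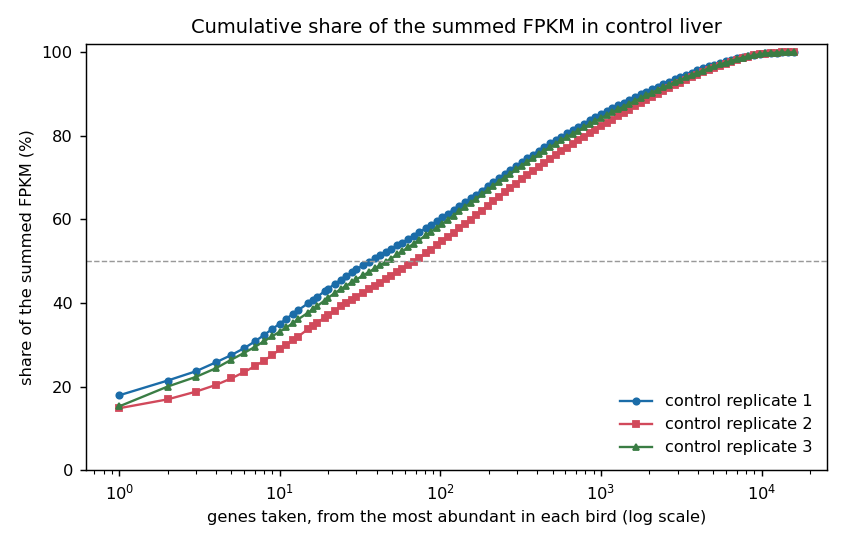
Share of the summed FPKM (y, percent) held by the most abundant genes of each control bird, taken in order of abundance (x, number of genes, log scale), with 1 line per bird. The lines cross the dashed 50% level at 37 genes in control bird 1, 47 in bird 3 and 69 in bird 2.

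The 25 most abundant genes were dominated by plasma proteins. ALB stood at 107416, 90339 and 92788 FPKM in birds 1, 2 and 3, far above the next gene in every bird. It was followed on average by APOA1, the core protein of high-density lipoprotein, at 21147, 11258 and 28823 FPKM. The avian beta-defensin AvBD9, an antimicrobial peptide gene, was next at 12868, 12899 and 12666 FPKM, with a coefficient of variation (CV, SD over mean) of 0.986% over the birds. With the birds scaled to the same median this CV was 10.6%. Hemopexin (HPX), which binds free heme, was at 13342, 9851 and 14072 FPKM. APOC3, an inhibitor of lipoprotein lipase, was at 10574, 9550.2 and 12518 FPKM and APOA2, another protein of high-density lipoprotein in mammals, at 9662, 9240.5 and 8426.

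Below these came a mixed set of secreted and intracellular products. SPINK5, listed with ovoinhibitor among its synonyms and thus a Kazal-type protease inhibitor, was at 9781, 5789 and 7218 FPKM in birds 1, 2 and 3. The fibrinogen chains FGB, FGG and FGA, whose products join in 1 clotting protein, were at 6579.5, 5475 and 5951, at 5668, 4651 and 4819.6 and at 4381, 3708 and 3713 FPKM. Iron and heme carriers were prominent: transferrin (TF) was at 4860.1, 3089 and 4852 FPKM, ferritin heavy chain (FTH1), the iron store of the cell, at 4563, 8189.9 and 4599, and PIT54, the hemoglobin-binding plasma protein of birds, at 4334, 3772 and 3187. Beta-2-glycoprotein I (APOH) was at 3981, 3222 and 2839 FPKM, and APOA4, a lipoprotein made in both gut and liver of chickens, at 3057, 1614 and 4023.

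The leading set also held enzymes of serine and purine synthesis. PSPH, the last enzyme of serine synthesis, was at 7002, 7945 and 6632 FPKM in birds 1, 2 and 3, above each of the fibrinogen chains on average. ATIC, which completes the purine ring, was at 3307, 3611 and 4164 FPKM. LBFABP, the liver basic fatty acid-binding protein of birds, was at 5011, 6798 and 4713 FPKM and NME4, a mitochondrial nucleoside diphosphate kinase, at 3657, 3206 and 2291.

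Of the 25, 4 genes had no symbol or only a locus name. Gene 107050180 was at 8449, 8572 and 9858 FPKM in birds 1, 2 and 3, gene 107049720 at 9526, 8238 and 6001, gene 101750014 at 2591, 5417 and 4154 and LOC100858647 at 3547, 4551 and 1647, and no role is given to them here. Of the 50 most abundant genes by the mean, 42 were among the 50 most abundant in every bird, so the head of the ranking was largely shared. All genes without a symbol held between 6.0% and 6.69% of the summed FPKM.

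**Figure D2:**
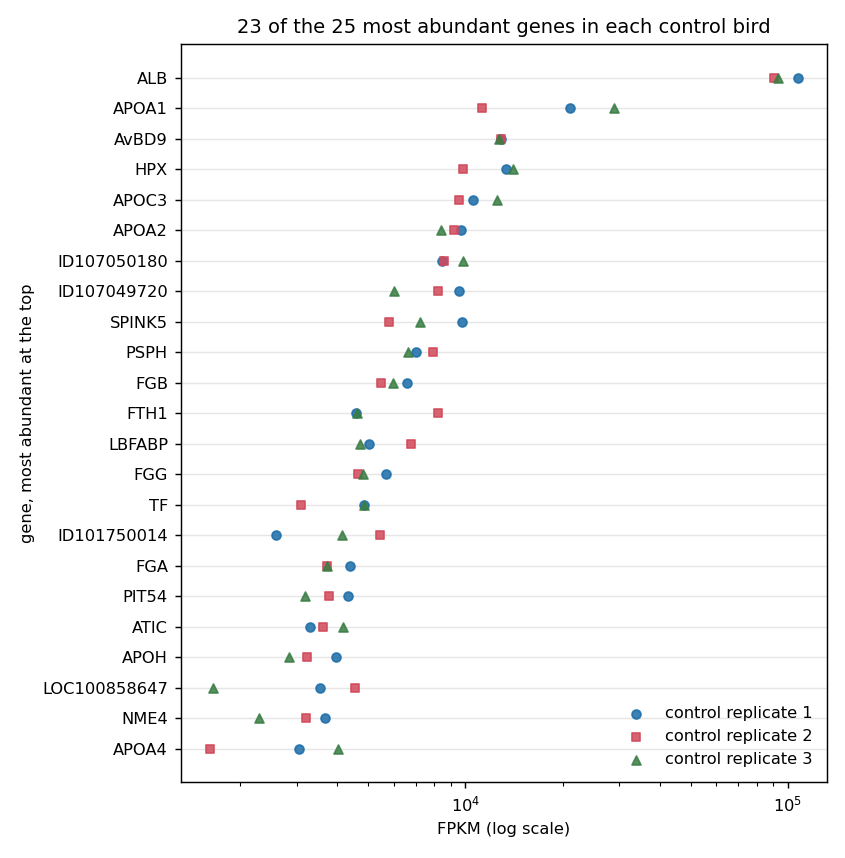
FPKM (x, log scale) of 23 of the 25 genes with the highest mean over the 3 control birds, with 1 point per bird and genes ordered by that mean from top to bottom. ALB lies apart from all others in each bird, the points of AvBD9 fall on each other, and APOA1, APOA4, gene 101750014 and LOC100858647 are spread over more than 2-fold.

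Functional make-up was described with 23 classes of genes, in which each gene counts once. Together the 922 genes of these classes held 62.0%, 58.3% and 62.4% of the summed FPKM in birds 1, 2 and 3. The 5 classes of plasma proteins held 37.9%, 30.3% and 35.6%, or 20.02%, 15.5% and 20.4% without albumin. Of the 50 most abundant genes, 20 belonged to these 5 classes, 15 to another class and 15 to none, among them AvBD9, APOA2, LBFABP and NME4. No class was compared with another by a test, and the 13 messages encoded by mitochondrial DNA are not analysed here.

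**Figure D3:**
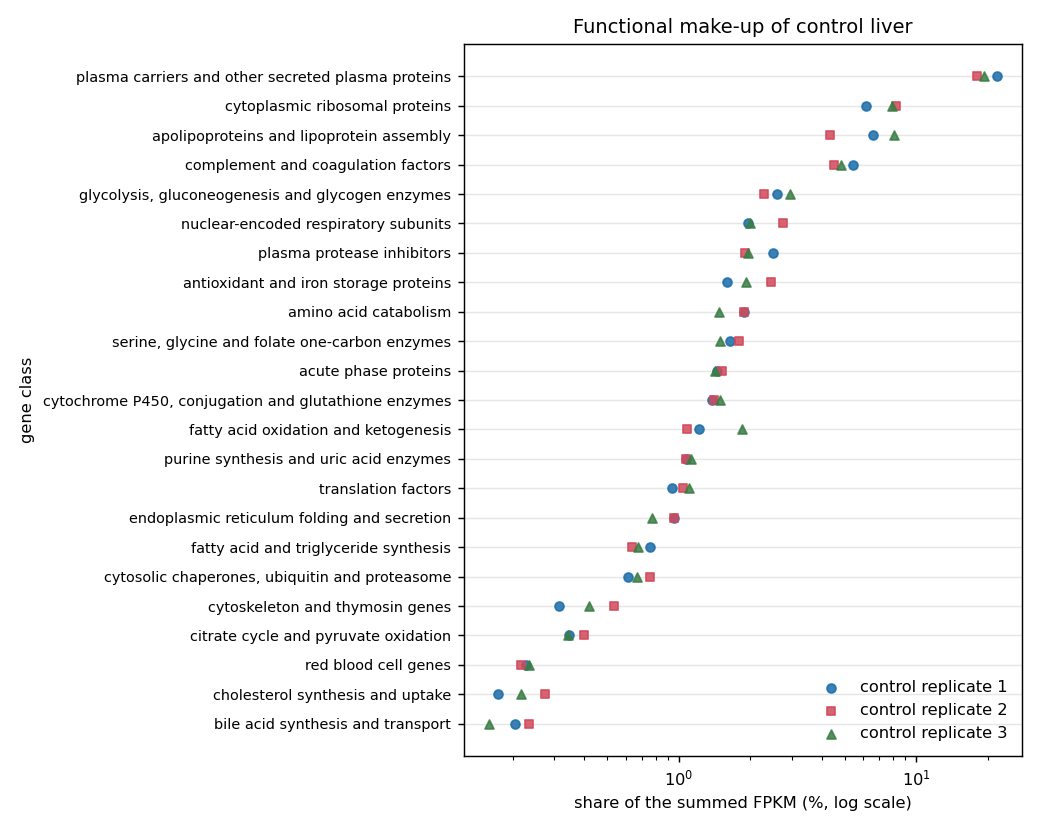
Share of the summed FPKM (x, percent, log scale) held by each of 23 gene classes in the 3 control birds, with 1 point per bird and classes ordered by their mean. Plasma carriers lead with 18.0% to 21.9%, ribosomal proteins are next with 6.14% to 8.22%, and bile acid genes are last with 0.159% to 0.234%.

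Among the plasma proteins, carriers held 21.9%, 18.004% and 19.3% of the summed FPKM in birds 1, 2 and 3, with ALB, HPX and TF ahead of transthyretin (TTR, 1828, 2588 and 2041 FPKM), the thyroid hormone carrier, and GC (1773, 1644 and 1874 FPKM), the vitamin D carrier. Apolipoproteins held 6.61%, 4.34% and 8.08%, most of it from APOA1 and APOC3. This share and the plasma protein total leave out APOA2, which was in no class. APOA2 alone held 1.61%, 1.52% and 1.39%. RBP4A, at 2337, 1901 and 1940 FPKM and thus above GC in every bird, was in no class either. The carrier share and the plasma protein total leave it out. APOB, the large structural protein of very-low-density lipoprotein, was much lower per length at 201, 197 and 206 FPKM and MTTP, which loads lipid on it, was at 40.03, 34.9 and 43.5. Complement and coagulation factors held 5.42%, 4.50% and 4.85%, where vitronectin (VTN) gave 2705, 2040.1 and 2186 FPKM and complement C3, the hub of the complement cascade, 1971, 910.2 and 1423. Bird 1 was highest for 24 of the 45 expressed members of this class, and bird 2 for 9, against 13.5% and 54.7% of all expressed genes. With the birds scaled to the same median these counts were 30 and 2, against 33.3% and 31.4% of all genes.

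Protease inhibitors held 2.51%, 1.91% and 1.96%, with SPINK5 followed by AMBP, the precursor of alpha-1-microglobulin and bikunin, at 2254, 2368 and 2383 FPKM and ITIH2, a partner of bikunin, at 851, 706 and 616. Acute phase proteins held 1.45%, 1.52% and 1.43%, almost all of it from PIT54, the metallothionein MT4 at 1617, 3344 and 2178 FPKM and the acid glycoprotein ORM1 at 2260.2, 1686 and 2879.6. Serum amyloid A (SAA), the classical marker of an acute phase, was at 81.9, 59.2 and 25.1 FPKM, and lipopolysaccharide-binding protein (LBP) at 3.39, 9.56 and 7.65. The summed share of the acute phase class thus differed little between birds although its members did, as shown further on.

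The machinery of protein synthesis was the next largest. The 68 expressed ribosomal protein genes held 6.14%, 8.22% and 7.92%, led by RPLP1 at 1188, 1896 and 1743 FPKM and RPL37A at 1183, 1921 and 1647. These messages are short, so that their share by fragments was only 2.93% on average. The class of translation factors held 0.938%, 1.04% and 1.10%, with the elongation factors EEF1A1 at 1132, 1122 and 1400.2 FPKM and EEF2 at 369.7, 388 and 446. TPT1, at 1171, 1472 and 1511 FPKM, was listed there but is not an initiation or elongation factor. Endoplasmic reticulum folding and secretion genes, which process the plasma proteins, held 0.955%, 0.961% and 0.775%, led by the chaperone CALR at 583, 522 and 442 FPKM, OST4, a subunit of the glycosylation complex, at 295, 498 and 331 and P4HB, a disulfide isomerase, at 325, 293 and 279. Cytosolic chaperones, ubiquitin and proteasome genes held 0.615%, 0.754% and 0.667%, with HSP90AA1 at 556, 571 and 680.1 FPKM, HSPE1 at 373, 492 and 355 and HSPA2 at 274, 396 and 342.

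Energy metabolism followed. Glycolysis, gluconeogenesis and glycogen enzymes held 2.61%, 2.30% and 2.93%, with enolase (ENO1, 1764, 1573 and 2237 FPKM) and G6PC (1082, 927 and 1258 FPKM), the enzyme that frees glucose from its phosphate. The gluconeogenic enzymes FBP1 and mitochondrial PCK2 were at 798, 755 and 665 and at 457, 352 and 394 FPKM, while liver pyruvate kinase (PKLR), on the glycolytic side, was at 6.17, 10.7 and 9.82. The class of nuclear-encoded respiratory subunits held 1.96%, 2.74% and 2.001%, led by SLC25A6 at 543, 652 and 755 FPKM, COX7C at 563, 780.5 and 556 and UQCRHL at 409, 721 and 517. SLC25A6 is the ADP/ATP carrier, listed there though not a subunit of the respiratory chain. The citrate cycle and pyruvate oxidation held 0.344%, 0.402% and 0.342%, led by the pyruvate carrier subunit MPC2 at 295, 389 and 337 FPKM, MPC1L at 224, 337 and 341 and PDK4, which switches pyruvate oxidation off, at 279, 262 and 278.

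Amino acid catabolism held 1.89%, 1.88% and 1.48%, led by the tyrosine-degrading enzymes TAT at 1456, 1392 and 1299.8 FPKM and HPD at 1400.1, 1403 and 1304 and by MAT1A, which makes S-adenosylmethionine, at 1098, 943 and 544. Enzymes of serine, glycine and folate metabolism held 1.65%, 1.80% and 1.49%, nearly all from PSPH, PHGDH, the first enzyme of serine synthesis, at 1700.3, 1723 and 1283 FPKM and PSAT1, the step between them, at 476, 569 and 533. Purine synthesis and uric acid enzymes held 1.08%, 1.07% and 1.13%, led by ATIC, PRPS2, which makes the phosphoribosyl donor, at 985, 856 and 956 FPKM and ADSL at 749, 759 and 632. The committed enzyme of purine synthesis, PPAT, was at 347, 298 and 234 FPKM and xanthine dehydrogenase (XDH), which makes uric acid, at 112, 107 and 177. By contrast the urea cycle enzymes ASS1 and ASL were at 4.95, 7.62 and 11.96 and at 1.15, 2.63 and 2.41 FPKM.

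Lipid metabolism was divided among 4 classes. Fatty acid and triglyceride synthesis held 0.755%, 0.640% and 0.672%, led by the acyl-CoA-binding protein DBI at 898, 758 and 722 FPKM, THRSP (Spot 14), a lipogenic regulator, at 775, 251 and 540.1 and HSD17B13, a lipid droplet protein, at 447, 550.4 and 302. The core lipogenic enzymes ACLY, FASN and SCD were at 165, 181 and 213, at 56.3, 58.9 and 38.1 and at 18.1, 13.9 and 19.7 FPKM, so that ACLY was the highest of them in every bird. Fatty acid oxidation and ketogenesis held 1.22%, 1.09% and 1.85%, with ACAT1, a thiolase of both pathways, at 315, 343 and 491 FPKM. Cholesterol synthesis and uptake held 0.174%, 0.275% and 0.217%, most of it from INSIG1 and INSIG2, which restrain the pathway, and from ACAT2. Bile acid synthesis and transport held 0.204%, 0.234% and 0.159%, led by the hydroxylase CYP27A1 at 220.3, 328 and 234 FPKM, the ligase SLC27A2 at 165, 147 and 154 and the exporter subunit SLC51A at 123, 166 and 59.2.

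Clearance and protection were represented by many genes of moderate level. Cytochrome P450, conjugation and glutathione enzymes held 1.38%, 1.41% and 1.49%, led by CYP3A5 at 1060.1, 905 and 1805 FPKM, ALDH2, which clears acetaldehyde, at 618, 697 and 603 and DHRS7 at 622, 553 and 699. Antioxidant and iron storage proteins held 1.60%, 2.46% and 1.92%, with FTH1, the plasma glutathione peroxidase GPX3 at 1133, 2399 and 2823 FPKM and GPX4, which reduces lipid peroxides, at 756, 1072 and 1327. FTH1 in bird 2 and GPX3 in birds 2 and 3 made up most of the difference between birds in this class. Cytoskeleton and thymosin genes held 0.313%, 0.534% and 0.418%, with actin (ACTB) at 570.5, 1154 and 764 FPKM, myosin light chain MYL6 at 450.2, 833 and 658 and TMSB4X at 178, 291 and 286.

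The spread between the birds was described by the CV of each gene over the 3 birds. Its median over the 10719 expressed genes was 20.2%, and 838 genes (7.82%) exceeded 50%. The median CV was 21.9% for genes of 1 to 10 FPKM, 18.0% for 10 to 100, 17.3% for 100 to 1000 and 16.9% for the 61 genes above 1000. The part that counting alone would give was 7.65% at the median over all genes and 10.2%, 4.79%, 1.86% and 0.614% in the 4 ranges. Most of the spread was thus not counting error, and in FPKM as deposited its size depended little on abundance. With counting subtracted the median over all genes was 18.0%, and with birds scaled to the same median it was 17.7%. Scaled in this way, the 4 ranges gave 19.2%, 15.8%, 15.8% and 20.2%. The 61 genes above 1000 FPKM were then the widest range. Of the 61 genes above 1000 FPKM, 14 stayed within 1.2-fold between the highest and the lowest bird and 8 differed by 2-fold or more.

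Gene classes differed widely in this respect. Among the make-up and regulatory classes with at least 10 expressed genes, cell type marker lists left out, the smallest median CV was that of translation factors at 12.2%, followed by apolipoproteins at 14.9%, complement and coagulation factors at 15.1%, red blood cell genes at 15.3% and endoplasmic reticulum folding genes at 15.4%. The largest was that of cholesterol synthesis and uptake at 65.2%, followed by acute phase proteins at 41.2%, immediate early genes at 37.2%, fatty acid and triglyceride synthesis at 31.8% and P450, conjugation and glutathione enzymes at 31.7%. Respiratory subunits (20.7%), amino acid catabolism (20.2%) and heat shock genes (20.1%) lay near the median of all genes. Of the 38 translation factors none differed by 2-fold or more, against 15 of the 24 cholesterol genes and 19.0% of all expressed genes. Of the 12 apolipoprotein genes 3 (25%) did, and the summed share of that class had a CV of 29.7% over the birds. Scaled to the same median, ribosomal proteins (10.03%) became the steadiest class and cholesterol genes (56.5%) remained the widest. Apolipoproteins (20.3%), complement and coagulation factors (19.7%) and red blood cell genes (20.5%) then lay above the median of all genes, which was 17.7%. Translation factors (11.8%) and endoplasmic reticulum folding genes (17.4%) stayed below it.

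**Figure D4:**
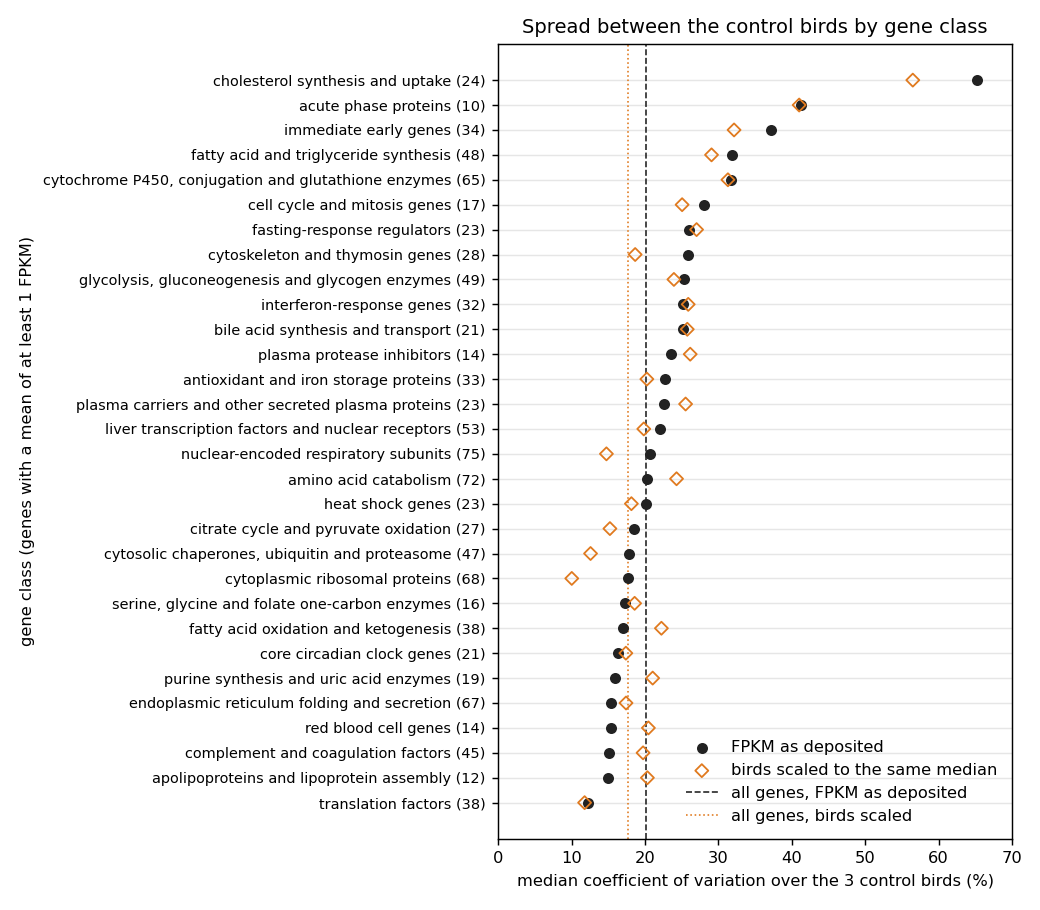
Median CV over the 3 control birds (x, percent) of each functional class with at least 10 genes at a mean of 1 FPKM or more, whose number stands in brackets, with filled circles for FPKM as deposited and open diamonds for birds scaled to the same median. Vertical lines mark the medians of all expressed genes, 20.2% and 17.7%, and cholesterol synthesis and uptake lies farthest above both, at 65.2% and 56.5%.

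The 10 steadiest genes at a mean of at least 20 FPKM were CST3, LCAT, CTSB, AvBD9, CLPX, TRAM1L1, NAXD, HPGDS, VAV3 and gene 107050513. Cystatin C (CST3), an inhibitor of lysosomal proteases, was at 223, 221 and 222 FPKM in birds 1, 2 and 3, a CV of 0.498%. LCAT, which esterifies the cholesterol of lipoproteins, was at 307, 304 and 309 FPKM and the lysosomal protease cathepsin B (CTSB) at 191, 194 and 192. HPGDS, a glutathione-dependent prostaglandin D synthase, was at 563, 553 and 551 FPKM and CLPX, a mitochondrial protease subunit, at 50.5, 50.6 and 51.4. In 9 of the 10, all but AvBD9, the measured CV was below that from counting alone (2.41% for CST3), so their order is not resolved at this depth. The rank also rests on the FPKM scale: with the birds scaled to the same median, the CV of CST3 became 11.1% and those of the other 9 lay between 9.16% and 11.7%, since equal FPKM are no longer equal once bird 1 is scaled up and bird 2 down.

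The 10 widest were PCK1, RPL35A, gene 107053269, FDFT1, CYP4B7, SULT1B, gene 100857622, LOC100859645, AHSG and ABHD6. The cytosolic gluconeogenic enzyme PCK1 was at 11.7, 2.90 and 178 FPKM in birds 1, 2 and 3, and gave 336, 71 and 4743 fragments, a CV of 154%. Bird 3 was also far above the others in CYP4B7, a cytochrome P450, at 34.2, 33.4 and 177 FPKM and in ABHD6, a monoacylglycerol lipase, at 15.2, 15.2 and 61.5. Bird 1 alone was high in SULT1B, a sulfotransferase, at 46.2, 11.9 and 6.98 FPKM. Fetuin A (AHSG), a secreted inhibitor of mineral deposition, was at 345, 1094 and 199 FPKM, with bird 2 highest. RPL35A was at 649, 35.01 and 81.8 FPKM and went against the other ribosomal proteins, of which bird 1 was lowest in 67 of 68; ribosomal protein genes can share reads with near-identical copies, so this value is uncertain.

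Genes in which a single bird stood apart from both others were few. Among the 2406 genes at a mean of at least 20 FPKM, bird 1 was at least 2-fold above both others in 7 genes and at least 2-fold below both in 30. The same counts were 19 and 17 for bird 2 and 25 and 46 for bird 3. With the birds scaled to the same median, they were 17 and 8 for bird 1, 12 and 28 for bird 2 and 26 and 49 for bird 3. The direction in birds 1 and 2 thus depended on the scaling, while bird 3 stood apart most often either way. At 4-fold, in FPKM as deposited, the counts were 1 and 3, 1 and 3, and 3 and 3. Bird 1 was above both others by this measure in RPL35A and below them in GSTA4 (4.48, 66.8 and 46.7 FPKM), a glutathione transferase, in SIK1 (10.5, 71.4 and 75.1), a kinase of fasting and cAMP signalling, and in DIO3 (10.8, 80.998 and 48.2), which inactivates thyroid hormone. Bird 2 was lowest in gene 107057346 (129, 2.30 and 101 FPKM), in LOC415662 (37.8, 8.51 and 52.3) and in PCK1 and highest in gene 107053269 (22.97, 133 and 6.72). Bird 3 was highest in PCK1, CYP4B7 and ABHD6 and lowest in CYP7A1, COMTD1 (86.7, 129.9 and 19.4 FPKM) and MSMO1.

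Cholesterol synthesis genes differed between the birds as a block. Of the 24 expressed members, 18 were highest in bird 2 and lowest in bird 3, an order found in 23.6% of all expressed genes, and 15 members had it with the birds scaled to the same median, against 17.6% of all genes. The median ratio of the highest to the lowest bird was 3.88 in all 24 members and 1.47 over all expressed genes. It was 4.83 in the 18, which were picked by their order in these same values, and 1.25 in the other 6. FDPS, which makes farnesyl diphosphate, was at 19.5, 61.9 and 11.8 FPKM in birds 1, 2 and 3 and FDFT1, the first committed step to sterols, at 13.99, 46.3 and 4.40. Later steps went the same way: SQLE, the squalene epoxidase, was at 4.12, 14.4 and 0.483 FPKM, CYP51A1, the lanosterol demethylase, at 12.4, 29.5 and 5.46 and MSMO1 at 69.9, 129.8 and 15.7. The transcription factor SREBF2, which drives these genes, was at 19.7, 34.4 and 7.95 FPKM and its escort SCAP at 6.27, 15.8 and 5.06, in the same order.

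The other 6 members did not share that order. INSIG1, which holds SREBF2 back, was at 326, 628 and 664 FPKM in birds 1, 2 and 3, and thus as high in bird 3 as in bird 2. HMGCS1 and MVK, early steps of the same pathway, were at 13.5, 13.9 and 15.6 and at 11.4, 11.3 and 11.8 FPKM and differed little. INSIG2 was at 118, 117 and 133 FPKM, ACAT2 at 214, 251 and 288 and the esterifying enzyme SOAT1 at 8.90, 11.7 and 14.7. The median CV of the class was 34.6% without bird 2, 43.6% without bird 3 and 83.2% without bird 1, where 2 birds tend to give a smaller SD. With all 3 birds it was 34.5% among members with a mean of at least 10 FPKM. The size of the class value thus rests on birds 2 and 3 and on the less abundant members.

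**Figure D5:**
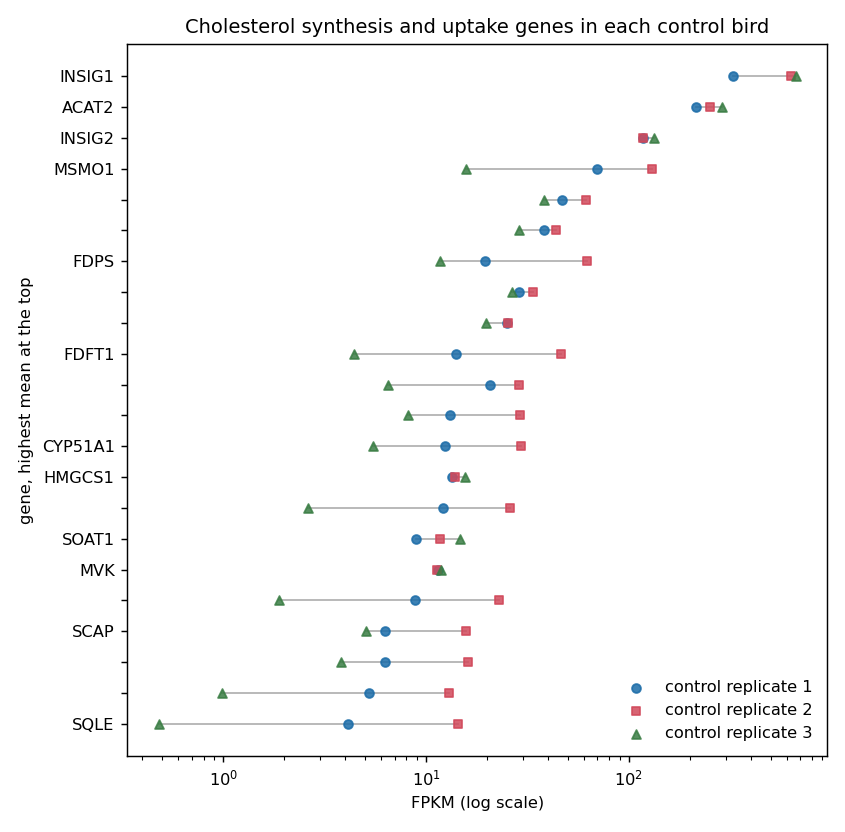
FPKM (x, log scale) of 22 of the 24 expressed cholesterol synthesis and uptake genes in the 3 control birds, with 1 point per bird, a grey line from the lowest to the highest bird, genes ordered by their mean, and names for the genes described in the text. Bird 2 lies at the right end and bird 3 at the left end in 16 genes, whereas HMGCS1, MVK and INSIG2 have nearly coinciding points.

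Several bile acid genes were likewise lowest in bird 3. CYP7A1, the rate-limiting enzyme, was at 43.5, 37.5 and 4.07 FPKM in birds 1, 2 and 3, and CYP8B1, which sets the kind of bile acid made, at 5.31, 31.5 and 2.45. The exporter ABCB11 was at 26.1, 36.5 and 12.003 FPKM and the exporter subunits SLC51A and SLC51B at 123, 166 and 59.2 and at 63.9, 104 and 40.1. NR0B2 (SHP), a repressor of CYP7A1 in mammals, was at 9.65, 14.7 and 25.6 FPKM and highest in bird 3. In contrast CYP7B1, of the alternative route, at 106, 60.4 and 88.6 FPKM, and the uptake carrier SLCO2B1, at 64.9, 77.9 and 69.99, were not lowest there. Bird 3 was lowest in 12 of the 21 expressed members of the class, against 32.4% of all genes.

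Genes known for the response to fasting were mixed. Bird 3 was highest in PCK1, in CPT1A, the gate of mitochondrial fatty acid oxidation, at 45.6, 61.9 and 183 FPKM, and in ANGPTL4, an inhibitor of lipoprotein lipase, at 1.14, 0.609 and 11.8. It was likewise highest in the peroxisomal gene PEX11A at 2.16, 2.69 and 11.5 FPKM and in FABP1 at 0.914, 1.72 and 12.6. Other genes of the same response hardly differed in FPKM as deposited: TAT had a CV of 5.69%, PDK4 of 3.46% and PPARA, the receptor that drives fatty acid oxidation, of 5.66%. With the birds scaled to the same median the CV of TAT was 14.4%, against a median of 17.7% over all expressed genes. The fasting list as a whole had a median CV of 25.9% over 23 genes in FPKM as deposited, and 11 of them were highest in bird 3, against 31.8% of all expressed genes. With the birds scaled to the same median, 9 of the 23 (39.1%) were highest there, near the 35.2% of all genes. The time since the last feed is not given in the sources used here.

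Adipocyte markers shared with hepatocytes, CD36 at 110.2, 87.4 and 70.1 FPKM in birds 1, 2 and 3, PCK1 and CIDEC at 42.99, 39.8 and 93.2, did not share 1 order: CD36 was highest in bird 1, and PCK1 and CIDEC in bird 3. The fat cell hormone adiponectin (ADIPOQ) was at 0.701, 0.940 and 0.970 FPKM and PLIN1, the droplet coat of fat cells, at 2.98, 5.97 and 7.10. Among lipogenic genes THRSP was lowest in bird 2 and ACACA, the rate-limiting carboxylase, lowest in bird 3, whereas CIDEA at 169, 167 and 179.7 FPKM and FADS6 at 92.5, 98.8 and 90.6 hardly differed. G0S2, an inhibitor of the lipase PNPLA2, was at 4.68, 17.4 and 1.48 FPKM and highest in bird 2. No single order of the birds held for more than 11 of the 48 expressed members of the lipogenic class.

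Liver transcription factors were steadier than the cholesterol genes but not uniform. The most abundant were CEBPD at 174, 255 and 268 FPKM, the stress factor ATF4 at 189, 144 and 167 and XBP1, a factor of secretory cells, at 161, 196 and 134. The median CV was 22.02% over 53 genes, near that of all genes. GATA6 at 70.9, 71.7 and 74.8 FPKM, the glucocorticoid receptor NR3C1 at 8.28, 7.61 and 7.62 and NR1H3, the oxysterol receptor, at 60.01, 54.1 and 63.95 were among the steadiest. SREBF2 was the widest, and HNF4A, a master factor of hepatocytes, was at 15.6, 14.7 and 4.43 FPKM, lowest in bird 3. CEBPA was at 56.7, 51.2 and 26.3 FPKM, again lowest in bird 3.

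Clock genes had a median CV of 16.4% over 21 genes, against 20.2% over all expressed genes, and of 17.4% against 17.7% with the birds scaled to the same median. Of the 21, 4 differed by 2-fold or more (19.05%, against 19.0% of all expressed genes). The most abundant were the repressor BHLHE40 at 59.3, 35.8 and 66.2 FPKM, CRY1 at 26.96, 45.1 and 30.5 and PER2 at 25.1, 23.5 and 29.2. ARNTL (BMAL1), whose level cycles over the day, was the widest at 1.09, 3.76 and 3.06 FPKM, while the heme receptor NR1D1 was at 4.33, 4.55 and 5.47. The hour of sampling is not given in the sources used here.

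Immediate early genes, which respond within minutes to handling and other stimuli, were lowest in bird 1 in 30 of 34 expressed members and highest in bird 3 in 21, against 54.2% and 31.8% of all genes. With the birds scaled to the same median these counts were 21 and 22, against 32.1% and 35.2% of all genes. GADD45B was at 404, 491 and 474 FPKM in birds 1, 2 and 3, BTG1 at 211, 285 and 412 and ZFP36L1 at 142, 169 and 225. FOS was at 41.6, 67.8 and 95.6 FPKM and JUN at 52.4, 57.9 and 80.1, while EGR1 was at 4.61, 4.87 and 48.5, where bird 3 was 10.5-fold above the lowest bird. NR4A2 had the widest ratio at 0.169, 7.89 and 2.87 FPKM, lowest in bird 1.

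Heat shock genes lay near the median of all genes and interferon-response genes somewhat above it. The former had a median CV of 20.1% over 23 genes, with HSPB1 the widest at 7.30, 24.5 and 14.05 FPKM. The latter had a median CV of 25.3% over 32 genes, led by B2M, the light chain of class I molecules, at 1569, 1217 and 1386 FPKM, the class I heavy chain BF2 at 1107, 784 and 841 and IFI27L2 at 1197, 582 and 542. CMPK2 was the widest at 4.97, 8.43 and 1.41 FPKM, followed by IFI6 at 114, 72.2 and 21.9, both lowest in bird 3. Cell cycle genes were low, with 17 of 52 matched members at a mean of 1 FPKM or more: PCNA was at 21.2, 30.8 and 28.7 FPKM, BUB3 at 10.2, 13.7 and 12.04 and E2F1 at 9.15, 12.6 and 8.02, and BUB1 had the widest ratio of the highest to the lowest bird at 1.89, 3.22 and 0.231.

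Yolk precursors were close to the floor. VTG2, the main vitellogenin of hens, was at 0.0345, 0.0608 and 0.0558 FPKM in birds 1, 2 and 3 and VTG1 at 0.0162, 0.0569 and 0.0348, while VTG3 and APOV1, apovitellenin, had no fragment in any bird. No fragment allows up to 3, or between 2.88e-05% and 3.39e-05% of the fragments of these libraries, where only counting error is covered. The estrogen receptor ESR1 was at 14.8, 21.3 and 11.6 FPKM. Riboflavin-binding protein (RBP), which is also deposited in eggs, was the exception at 218, 110.4 and 69.5 FPKM, highest in bird 1.

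Ribosomal and respiratory genes each had 1 bird at one end of the range in most members. Ribosomal proteins were lowest in bird 1 in 67 of 68 genes, against 54.2% of all genes. With the birds scaled to the same median this held for 58, against 32.1%. Among genes of up to 800 bases of exon, the median log2 difference of bird 1 from the mean of the others was −0.45 for ribosomal genes and −0.20 for other genes. Respiratory subunits were highest in bird 2 in 67 of 75 genes, against 54.7% of all genes, and in 53 after scaling, against 31.4%.

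Several marker lists of other liver cells were mostly lowest in bird 1. This held for 16 of 17 stellate cell and fibroblast markers, all 17 endothelial markers and 9 of 12 macrophage markers, against 54.2% of all expressed genes, and for 16, 14 and 9 of them with birds scaled, against 32.1%. Of T cell markers 10 of 14 were lowest in bird 1, and 8 with birds scaled. In smaller lists, 8 of 10 bile duct, 4 of 5 thrombocyte, 2 of 3 heterophil, 3 of 5 B cell and 2 of 6 red blood cell markers were lowest in bird 1. With birds scaled these counts were 4, 3, 2, 1 and 0. The summed share of macrophage markers was lowest in bird 3, since CD163L, most of that sum, was highest in bird 1 and lowest in bird 3. Transgelin (TAGLN), a contractile protein, was at 18.99, 94.4 and 52.3 FPKM in birds 1, 2 and 3, smooth muscle actin (ACTA2) at 20.9, 58.002 and 37.8 and DCN at 50.9, 65.9 and 75.97. The complement subunit C1QA, made by macrophages, was at 7.60, 21.7 and 15.3 FPKM and MPEG1 at 6.92, 14.1 and 17.03. Hepatocyte markers went the other way, with 9 of 13 highest in bird 1, against 13.5% of all expressed genes. With birds scaled it was 10, against 33.3%. The part of these markers in the values of other classes was not tested.

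The control livers were set against the 3 fatty livers only to show where the leading genes stood. Over the 10886 genes that averaged 1 FPKM or more in the 6 libraries, limma with Benjamini-Hochberg adjustment called 124 (1.14%), 32 higher in control (0.294%) and 92 lower (0.845%). These calls are measured against the spread between these birds. The split was 36 higher and 43 lower with libraries scaled to the same median, which moved the median log2 difference of all genes from −0.12 to −0.00. The total was 77 without control bird 1, 36 without control bird 2, 21 without fatty bird 2 and 20 without fatty bird 3. Among the 50 most abundant control genes 2 were called, 1 in each direction, and 19 of the 50 did not overlap between the groups, against 23% of all genes. Their median log2 difference, control minus fatty liver, was 0.07 on the log2(FPKM + 1) scale, against −0.12 over all genes. Ranking on the control birds alone favours genes that are high there: the median was 0.016 for the 50 genes ranked on all 6 libraries, and for the control-ranked genes it was 0.22 with libraries scaled to the same median. All fatty birds came from the paternal group, so phenotype, descent and the diet of both parents cannot be told apart.

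ATIC was higher in the control birds at 3307, 3611 and 4164 FPKM, against 1361, 1749 and 1419 in fatty liver birds 1, 2 and 3, without overlap. The log2 difference was 1.29 with a standard error of 0.17 (limma adjusted p = 0.0197). APOC3 was lower in the control birds at 10574, 9550.2 and 12518 FPKM, against 27461, 21783 and 25656, also without overlap, with a log2 difference of −1.20 and a standard error of 0.17 (limma adjusted p = 0.0231). Without a filter on low values neither passed (limma adjusted p = 0.1002 for ATIC and 0.290 for APOC3). The call of APOC3 also depended on the scaling: it was lost with libraries scaled to the same median (limma adjusted p = 0.0664) and with FPKM rescaled without the 50 most abundant genes (0.0685), where ATIC passed (0.0284 and 0.0184). Both calls were lost when control bird 2 was left out (limma adjusted p = 0.0752 for ATIC and 0.0852 for APOC3), when fatty bird 2 was (0.0565 and 0.0622) or when fatty bird 3 was (0.0745 and 0.0812). ALB was at 107416, 90339 and 92788 FPKM in control and 67938, 74473 and 62319.5 in fatty liver, without overlap, but did not pass (limma adjusted p = 0.150). AvBD9, in FPKM as deposited the steadiest of the leading genes in control, was at 13328, 15397 and 8979 FPKM in fatty liver, a range that held all control values. With the control birds scaled to the same median its CV was 10.6%, above the 8.26% of PSPH.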

How the data were processed

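Liver polyA mRNA of 6 roosters was sequenced on a HiSeq 2500, 1 library per bird. Reads were cleaned by the authors with Sickle and SeqPrep and mapped to the genome, and the deposited values are FPKM, with 1 column per library. The aligner, counting tool and annotation are not given in the sources used here. A RefSeq table gave symbols for 16332 of 20498 gene IDs. Its assembly is bGalGal1.mat.broiler.GRCg7b, and the authors mapped to another, so it was used for names only.

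Whole fragments were worked out from the FPKM, which gave library totals between 8860634 and 10403637, and all values were returned within 1e-05. On simulated data this step was exact for 99.2% of 16770 genes. Shares and ranks of the control birds, over all genes, and CVs, over genes averaging 1 FPKM or more, were computed in Python 3.11.15 with pandas 2.3.3. For control against fatty liver, limma 3.58.1 (R 4.3.3) was run on log2(FPKM + 1), with a mean-variance trend, Benjamini-Hochberg adjustment and a threshold of 0.05. On simulated data with 200 of 10886 genes changed by 2 on the log2 scale, 199 were recovered with their sign, beside 6 false calls. That simulation used normal noise with a common SD for genes of similar level, and changes larger than those of ATIC and APOC3. It checks the procedure and does not give the share of true changes found in these data. The same replicate number marks different animals in the groups and does not pair them.

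Gene lists were matched by symbol (1317 names) or synonym (45 names), and 192 of 1554 names were not matched. The lists, the material and the tests were chosen with earlier results of these data known. A few genes that these rules select are not reported here. Named were the 25 most abundant genes, the 3 most abundant members of each list, the 10 steadiest and 10 widest genes at 20 FPKM or more, the widest member of each regulatory list, genes in which 1 bird stood at least 4-fold apart, and limma calls among the 50 most abundant genes. Genes named beyond these were chosen after their values were seen, as examples of known roles. Alternatives were fragments in place of FPKM, no albumin, scaling to the same median or without the 50 most abundant genes, other filters and pseudocounts, subtraction of the counting part, the replicate number as a block and each library left out.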

Additional observations from a re-analysis of the deposited data

How the results depend on the processing

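In the control birds, the share of the 10 most abundant genes was 32.1% on average, 20.6% without albumin and between 30.8% and 34.1% with 1 bird left out, and that of the first 50 was 50.03%, 45.6% by fragments, 40.8% without albumin and between 48.6% and 51.9% with 1 bird left out. Plasma proteins held 34.6%, or 22.2% without albumin, which in these values is left out of the class and of the total alike, and ribosomal proteins 7.43%, or 2.93% by fragments and 8.82% without albumin. Of the shares of the other classes, 22 classes under 2 alternatives each, 12 of 44 values moved by less than the SD between birds. The alternatives were fragments and no albumin. Leaving out albumin raises every class share but that of the carriers by 1 common factor per bird. It is thus no check of the single classes. The median CV of all genes was 20.2%. It was 17.7% with birds scaled to the same median, 17.8% with a filter at 10 FPKM, 27.6% without a filter, 18.0% with the counting part subtracted and between 16.2% and 17.9% with 1 bird left out, where 2 birds give a smaller SD by construction. The median SD of log2(FPKM + 1) over all genes moved to 0.288 with a pseudocount of 0.1 and lay between 0.194 and 0.214 with 1 bird left out. For cholesterol genes the median CV was 65.2%, 34.5% with a filter at 10 FPKM and between 34.6% and 83.2% with 1 bird left out, and their median SD of log2(FPKM + 1) lay between 0.46 and 1.26 with 1 bird left out.

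Between control and fatty liver, limma called 124 genes, 32 higher and 92 lower in control. It called 30 without a filter (7 and 23), 79 with libraries scaled to the same median (36 and 43) and 80 with FPKM rescaled without the 50 most abundant control genes (44 and 36). With 1 library left out it called between 20 and 127, between 5 and 38 of them higher and between 12 and 89 lower. Of the 50 most abundant genes 2 were called. The number was 0 without a filter, where 6 had an unadjusted p under 0.05, 1 under either rescaling, 4 when ranked on all 6 libraries and between 0 and 3 with 1 library left out. With the replicate block it was 4 of 50, and 140 genes in all. Deviations of same-numbered birds correlated at 0.02, 0.04 and 0.05, so the block pairs no birds. The cause of these differences was not tested. At this depth counting alone gives a median CV of 7.65%, against the 20.2% measured, and of 10.2% for genes of 1 to 10 FPKM.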
